A study of Mus musculus with 6 samples.

Results

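The proteasome subunits described here are 39 genes read by 87 of the 44935 probe sets kept from a mouse expression array, on RNA of whole adrenal glands. They were chosen by symbol: every probe set whose platform annotation named exactly 1 gene of the families Psma, Psmb, Psmc, Psmd, Psme or Psmf, without the immunoproteasome genes Psmb8, Psmb9 and Psmb10. Of the genes, 15 belong to the core particle (Psma and Psmb, 28 probe sets) and 24 to the regulators (Psmc to Psmf, 59 probe sets). The symbol rule used no measured value, but the members were chosen with earlier results of these data known. The glands came from 3-month-old male mice of the strain Per2Brdm1/Cry1-/- (C57BL6 x 129Sv), so the animals of both times carried the Per2Brdm1 mutation and lacked Cry1 and, per the labels, had no working circadian clock. After 2 weeks in a light-dark cycle they were kept in constant darkness. Dissection followed 54 h or 46 h after lights off, with 3 arrays for each time, called replicates 1, B and C. Glands with a working clock are not analysed here, and the labels do not say which animal or how many animals stand behind an array.

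The proteasome is the protease that degrades proteins tagged with ubiquitin in the cytosol and nucleus. Its core particle is a barrel of alpha and beta rings, and some beta subunits carry the cutting sites, facing inward. A regulatory particle of Psmc ATPases, which unfold the substrate and open the barrel, and Psmd subunits, which bind and remove ubiquitin, sits on the barrel's end; Psme proteins are other caps and Psmf1 is an inhibitor of the core. All are made in most cells, and in many cell types their genes are controlled together by the transcription factor Nfe2l1, which acts through antioxidant response elements. The adrenal gland joins a cortex, which makes steroids, to a medulla, which makes catecholamines.

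Upstream sequence is shown for Psmb6, a catalytic subunit, and for the genes Psmb4, Psmc4 and Psmc6, whose probe sets had the smallest p-values below. A RefSeq promoter table (GRCm38.p6) matched 32 of the 39 genes. Each run gives the 250 bases before the annotated start, read 5′ to 3′ on the gene's strand. Capitals mark every match, on both strands, to an element like the antioxidant response element (TGACNNNGC), to the GC box (GGGCGG), to the CCAAT box (CCAAT) or to the TATA box (TATAAA). The Psmb6 run is chr11:70525107-70525356 on the plus strand, Psmb4 is chr3:94886959-94887208 on the minus strand, Psmc4 is chr7:28050093-28050342 on the minus strand, and Psmc6 is chr14:45329574-45329823 on the plus strand.
Psmb6: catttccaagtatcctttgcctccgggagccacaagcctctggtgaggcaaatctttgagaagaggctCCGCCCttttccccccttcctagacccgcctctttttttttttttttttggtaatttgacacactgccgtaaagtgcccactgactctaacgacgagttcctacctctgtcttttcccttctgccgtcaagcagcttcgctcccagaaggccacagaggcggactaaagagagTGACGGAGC
Psmb4: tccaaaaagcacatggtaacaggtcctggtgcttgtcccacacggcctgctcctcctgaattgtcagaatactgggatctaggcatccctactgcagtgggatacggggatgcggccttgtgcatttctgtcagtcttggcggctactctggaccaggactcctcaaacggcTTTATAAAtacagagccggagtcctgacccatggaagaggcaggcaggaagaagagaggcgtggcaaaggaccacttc
Psmc4: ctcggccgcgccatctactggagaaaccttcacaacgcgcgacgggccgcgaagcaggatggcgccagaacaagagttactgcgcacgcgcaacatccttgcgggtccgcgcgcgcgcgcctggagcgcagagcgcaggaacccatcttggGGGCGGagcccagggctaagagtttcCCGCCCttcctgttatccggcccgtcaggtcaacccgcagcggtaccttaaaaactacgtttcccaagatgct
Psmc6: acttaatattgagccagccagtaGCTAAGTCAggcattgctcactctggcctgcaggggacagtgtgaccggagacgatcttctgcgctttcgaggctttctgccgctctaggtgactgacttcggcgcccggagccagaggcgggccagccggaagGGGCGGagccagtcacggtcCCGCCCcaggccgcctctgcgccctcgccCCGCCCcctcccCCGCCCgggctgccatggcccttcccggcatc
Psmb6 held the response-element letters directly before the start and Psmc6 held them near the far end of the run, while Psmc4 held only GC boxes and Psmb4 only overlapping TATA box matches, 1 on each strand. Over the 250 bases, 4 of the 32 genes (12.5%) held TGACNNNGC (Psmb6, Psmc6, Psmd9 and Psmd12), against 11.5% of 27025 genes in the table. In Psmd9 that match shares bases with a GC box. The GC box was in 18 of the 32 (56.2%), against 35.4% of all genes. CCAAT was in 14 (43.8%), against 37.5%, and TATAAA in 3 (9.38%), against 14.3%. These shares describe letters in a window and were not tested.

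The subunit genes showed no change past the test between the times, and their measured changes were small. No subunit probe set passed limma (0 of 68 tested, Benjamini-Hochberg adjusted p under 0.05 over 26961 probe sets), where 0.115% of all probe sets tested did. By limma 5 of the 68 (7.35%) had an unadjusted p under 0.05, where 10.1% of all probe sets did. Of the 5, 4 were higher at 54 h, where 4.34% of all probe sets were higher by that rule, and 1 was lower, where 5.75% were. By brightest probe set it was 4 of 37 genes, where 10.3% of all genes had such a p. With the arrays centred on their medians 10 of the 68 had one, 9 higher and 1 lower, and over all probe sets the split was 1727 higher and 1209 lower, against 1170 higher and 1549 lower as deposited. With array weights in the fit 7 of the 68 passed the test, those of Psmb2, Psmb3 (both probe sets), Psmb4, Psmc3ip and Psmc4 higher and that of Psmc6 lower, and so did 3466 of the 26961. The median log2 change over the 39 genes was 0.010, against -0.02 over all 18163 genes measured. Here and below the brightest probe set stands for its gene, and changes are on the log2(intensity + 16) scale. Of the 37 genes above the filter on dim probe sets, all had a 95% confidence interval inside a 1.5-fold change either way, as did 89.3% of all 13780 genes above the filter. By probe set it was 66 of 68 (97.1%), against 87.2% of all probe sets above the filter. The median SD between replicates within a time was 0.076 on the log2 scale for the subunits and 0.124 for those 13780 genes. Spread also falls with brightness, and the median signal was 3843 units for the 39 subunit genes and 709 for the 13780. The p-values and intervals measure the spread between these arrays, which may be technical in part.

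The arrays themselves were alike in scale, with medians of 203.9 to 217.2 units and a highest value of 17879. Adrenal markers were bright on every array: the 7 cortex genes summed to 88117 to 95839 units at 54 h and 92056 to 97029 at 46 h, and the 5 medulla genes to 49883 to 54886 and 52619 to 55989. Of the cortex genes 0 of 7 and of the medulla genes 0 of 5 were higher at 54 h, against 44.7% of all genes. Liver markers differed between the times, with 9 of 9 higher at 54 h and sums of 8115 to 12087 units at 54 h against 3630 to 5735 at 46 h. The 12 immune cell markers summed to 27960 to 28454 units at 54 h and 30349 to 31446 at 46 h, with 6 higher and 6 lower, and no marker of these lists read 0. At an unadjusted limma p under 0.05, 0 immune markers were higher and 4 lower, and 0 passed the test. Such a p was found for 10.3% of all genes. Adipose markers, with 4 of 5 higher, summed to 16068 to 20857 units at 54 h and 13738 to 18123 at 46 h. The 3 erythroid markers, with 2 higher, summed to 1747 to 2199 units at 54 h and 1245 to 1684 at 46 h. The part of these tissues in the subunit values was not tested, and in a whole gland fewer cells of a type and less RNA per cell cannot be told apart.

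**Figure D1:**
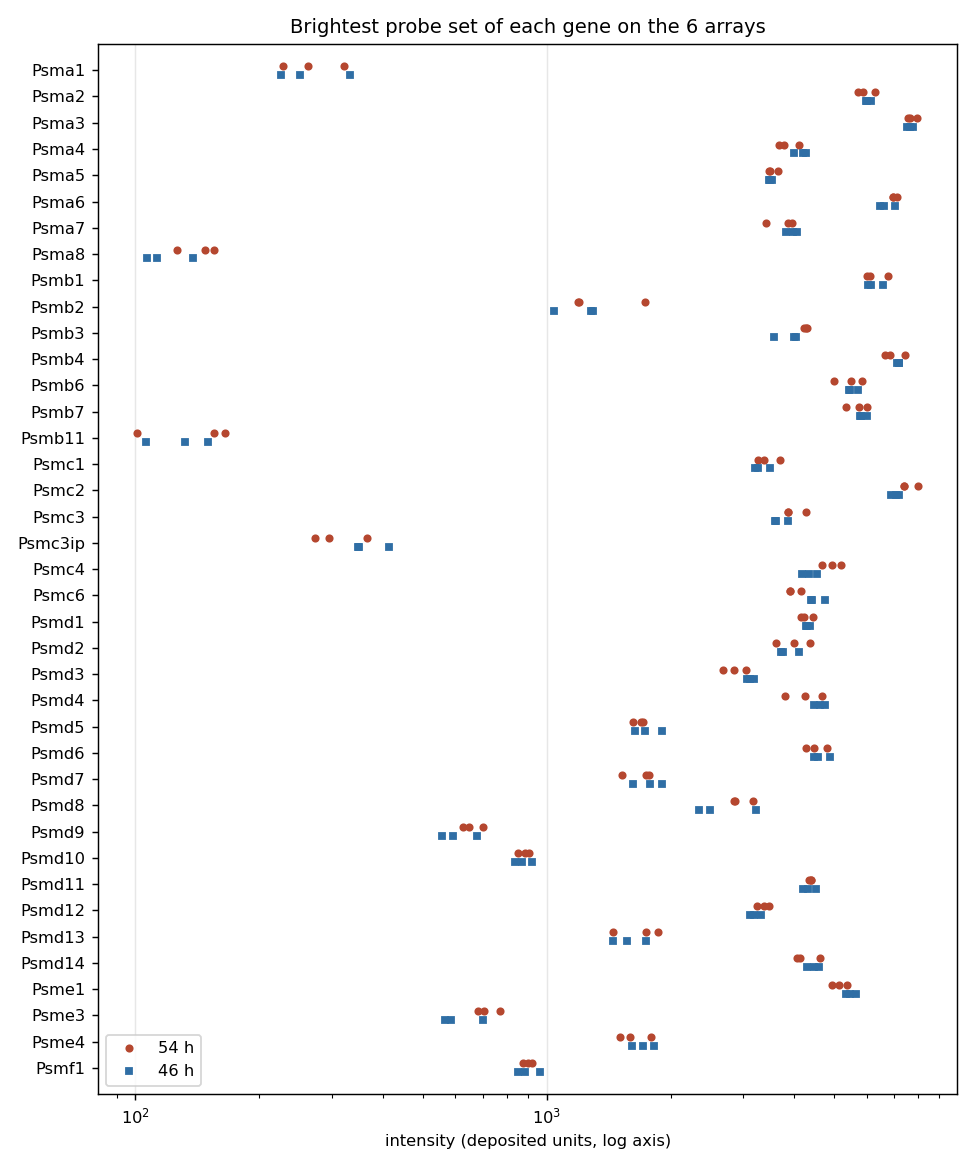
Intensity of the brightest probe set of each of the 39 genes (horizontal log axis, deposited units) on the 3 arrays of 54 h (circles) and the 3 of 46 h (squares). Circles and squares of a gene lie close together; 31 genes average over 1000 units, and Psma8 and Psmb11 lie lowest. Distances between genes reflect probes as well as transcripts.

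In signal, 68 of the 87 probe sets lay above the filter, 21 of 28 in the core and 47 of 59 in the regulators, and 37 of 39 genes had at least 1 such probe set. The exceptions were Psma8, the alpha subunit of male germ cells, and Psmb11, the catalytic subunit of the thymus cortex. Psma8 read 155, 126 and 148 units at 54 h, against 107, 113 and 138 at 46 h, always in the order 1, B, C. Psmb11 read 155, 101 and 165 units at 54 h, against 150, 132 and 106 at 46 h. Both were thus dim at each time, with overlapping arrays. The 5 germ cell markers summed to 995 to 1027 units at 54 h and 907 to 1016 at 46 h, and 3 of them lay above the filter. The brightest, Tex101, averaged 480 units at 54 h and 502 at 46 h. Psma1, a subunit of the alpha ring in every proteasome, had only dim probe sets: its brightest read 228, 321 and 263 units at 54 h, against 251, 226 and 332 at 46 h, and the others lay under the filter. Probe brightness differs between probe sets, so these figures do not order the genes by transcript amount. The symbol rule also took in Psmc3ip, a factor of meiotic recombination that shares only its name with the ATPases.

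Within the core, the alpha ring gates the barrel. Its 8 genes had a median log2 change of 0.01, 5 higher and 3 lower, and limma gave 0 past the test and 0 at an unadjusted p of 0.05. Psma6 had the largest positive change above the filter, with 7114, 6952 and 6953 units at 54 h, against 6477, 6606 and 7041 at 46 h. Its log2 change was 0.06 ± 0.04 (SE), with a limma adjusted p of 0.678, and the arrays of the times overlapped. Psma4 had the lowest, with 3666, 4116 and 3775 units at 54 h, against 3992, 4187 and 4264 at 46 h, a log2 change of -0.11 ± 0.06 (SE) and a limma adjusted p of 0.592. Here 54h replicate B lay among the 46 h arrays and the other 54 h arrays below them. Psma3 averaged 7722 ± 188 units at 54 h (SD, n = 3) and 7630 ± 128 units at 46 h (SD, n = 3).

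Among beta subunits, Psmb6 carries the caspase-like site and Psmb7 the trypsin-like site; the third catalytic gene, Psmb5, is not analysed here. Psmb6 read 5008, 5852 and 5484 units at 54 h, against 5464, 5417 and 5714 at 46 h, a log2 change of -0.02 with a 95% interval of -0.16 to 0.11. Psmb7 read 5330, 6023 and 5732 units at 54 h, against 6013, 5771 and 5801 at 46 h, a log2 change of -0.04 with an interval of -0.16 to 0.08. For both genes 54h replicate 1 was the lowest of the 6 arrays and 54h replicate B the highest, so the times overlapped fully. Psmb3, a structural beta subunit, read 4298, 4233 and 4279 units at 54 h, against 3568, 4002 and 4041 at 46 h. All 54 h arrays lay above all 46 h arrays, with a log2 change of 0.14 ± 0.06 (SE) and a limma adjusted p of 0.474, and its other probe set had 0.13. Psmb2, another structural subunit, had the largest positive change of the beta genes at 0.17 ± 0.15 SE (limma adjusted p = 0.756). It read 1196, 1193 and 1733 units at 54 h, against 1039, 1281 and 1299 at 46 h, so that 1 array, 54h replicate C, stood above the rest. Without it the log2 change was -0.01.

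The 3 immunoproteasome genes, whose products replace the catalytic beta subunits after interferon, were all nominally lower, and 0 of 3 passed limma or reached an unadjusted p of 0.05. Of all 18163 genes 10051 were lower, and for 15.4% the arrays of the times did not overlap. Psmb9 read 377, 446 and 460 units at 54 h, against 504, 508 and 511 at 46 h. Every 54 h array lay below every 46 h array, and the log2 change was -0.24 ± 0.11 (SE), with a limma adjusted p of 0.499. Psmb10 read 1874, 1782 and 1880 units at 54 h, against 1919, 2118 and 1923 at 46 h, again with no overlap (log2 change -0.10 ± 0.07 SE, limma adjusted p = 0.673). Psmb8 read 562, 615 and 569 units at 54 h, against 658, 466 and 691 at 46 h, with overlap and a log2 change of -0.03 ± 0.15 (SE) and a limma adjusted p of 0.959. A dimmer Psmb8 probe set under the filter had a change of 0.39. Psmb9 takes the place of Psmb6 and Psmb10 that of Psmb7, whose changes are given above; whether the genes of such a pair differed was not tested.

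The ATPase ring had the largest median absolute change of the subgroups, 0.11 on the log2 scale. Over all genes it was also 0.11, and over all genes above the filter 0.09. Of its 5 genes, Psmc1, Psmc2, Psmc3 and Psmc4 were higher and Psmc6 lower, with a median log2 change of 0.11; limma gave 0 past the test and 2 higher and 1 lower with an unadjusted p under 0.05, a p that 10.3% of all genes had. Psmc4 read 5195, 4679 and 4939 units at 54 h, against 4167, 4546 and 4339 at 46 h. The arrays did not overlap, and the log2 change was 0.18 ± 0.06 (SE), with a limma adjusted p of 0.335. Psmc2 read 8010, 7407 and 7374 units at 54 h, against 6881, 7190 and 7050 at 46 h, also without overlap, with 0.11 ± 0.05 SE (limma adjusted p = 0.472). Psmc6 went the other way, with 3901, 4142 and 3905 units at 54 h, against 4380, 4424 and 4751 at 46 h. Its log2 change was -0.18 ± 0.06 (SE), with a limma adjusted p of 0.328, with every 54 h array below every 46 h array. Psmc3 and Psmc1 had 0.11 ± 0.06 and 0.05 ± 0.07 SE. Both are ATPases of the same ring, and the changes of Psmc4 and Psmc6 had opposite signs. Neither passed the test, and for both genes a further probe set read close to 0, as described below. The second probe set of Psmc2 had -0.06. Psmc5 is not analysed here.

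The 14 Psmd genes had a median log2 change of 0.00, 7 higher and 7 lower, between -0.13 and 0.15, and limma gave 0 past the test and 0 at an unadjusted p of 0.05. Psmd8, of the lid, had the largest positive value, with 2853, 3174 and 2873 units at 54 h, against 2349, 2495 and 3232 at 46 h. On 46h replicate C it was higher than on any other array. Without that array its log2 change was 0.29, and without 46h replicate 1 it was 0.06. With all arrays its log2 change was 0.15 ± 0.11 (SE), with a limma adjusted p of 0.693. Psmd3, also of the lid, had the lowest value, with 2678, 3044 and 2861 units at 54 h, against 3064, 3197 and 3119 at 46 h. The arrays did not overlap, but the log2 change of -0.13 ± 0.07 SE was not past the test (limma adjusted p = 0.555). The scaffold genes of the base, Psmd1 and Psmd2, had -0.01 ± 0.05 and 0.05 ± 0.08 SE. Psmd4, a receptor for ubiquitin chains, had -0.12 ± 0.07 SE, and Psmd14, the enzyme that cuts the chains off, had -0.06 ± 0.06 SE. Among the other lid genes Psmd12 had 0.07, Psmd13 0.08, Psmd11 0.01, Psmd6 -0.04 and Psmd7 -0.07. The chaperones that assemble the base, Psmd5, Psmd9 and Psmd10, had -0.07, 0.11 and 0.01.

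Of the caps, Psme1, which interferon induces and which forms a ring on the core, read 5377, 5138 and 4938 units at 54 h, against 5354, 5447 and 5634 at 46 h. Its log2 change was -0.09 ± 0.05 (SE), with a limma adjusted p of 0.589, and 54h replicate 1 lay among the 46 h arrays. Psme3, a related cap of the nucleus, read 704, 768 and 682 units at 54 h, against 586, 566 and 699 at 46 h. That was the largest positive change of a regulator, 0.22 ± 0.11 SE (limma adjusted p = 0.558), with 46h replicate C inside the 54 h range. The other Psme3 probe set above the filter had 0.18. Psme4, a cap with a role in germ cells and in DNA repair, had -0.07 ± 0.09 SE, and the inhibitor Psmf1 had 0.00 ± 0.09 SE on 899 ± 23.3 units at 54 h (SD, n = 3) and 900 ± 56.9 units at 46 h (SD, n = 3). The partner of Psme1, Psme2, shares its probe set with another gene in the annotation and was left out.

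**Figure D2:**
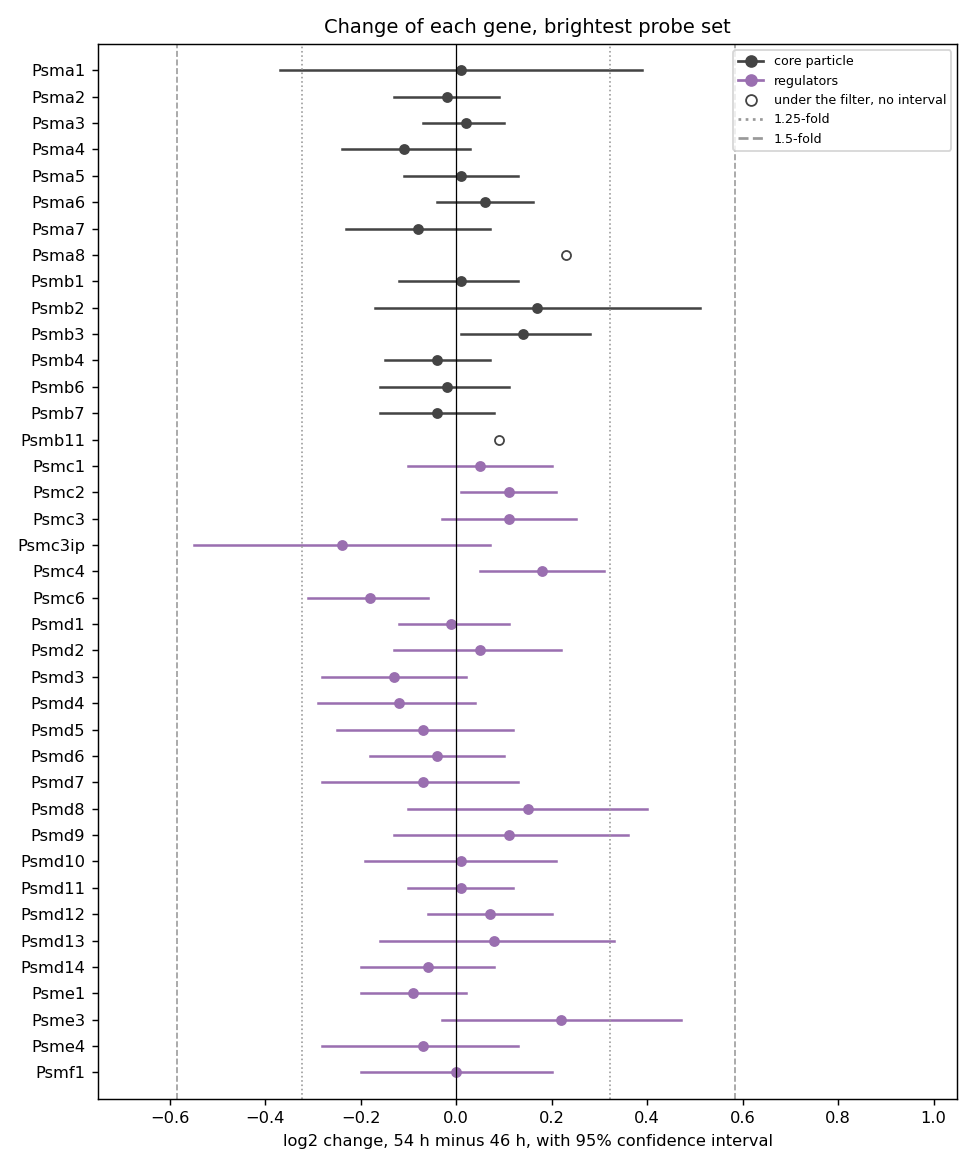
Log2 change (54 h minus 46 h, horizontal) of the brightest probe set of each gene, with the 95% confidence interval from limma as a line; core particle dark, regulators purple, open circles for the 2 genes under the filter. Every interval lies inside the dashed 1.5-fold lines, and the intervals of Psmb3, Psmc2, Psmc4 and Psmc6 leave out 0 before adjustment.

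The core particle and the regulators had like median changes when each gene was read from its brightest probe set, and the gap between them depended on that choice. The 15 core genes had a median log2 change of 0.010 (9 higher, 6 lower, -0.11 to 0.23) and the 24 regulator genes 0.005 (13 higher, 11 lower, -0.24 to 0.22), a difference of 0.005. The sizes of the changes were small in both, with a median absolute log2 change of 0.04 in the core and 0.08 in the regulators, against 0.09 over all genes above the filter and 0.11 over all genes. Taken per array, as the median deviation from the 46 h mean, core genes stood at -0.039, 0.056 and 0.003 on 54h replicates 1, B and C, and at -0.023, -0.011 and 0.041 on 46h replicates 1, B and C. Regulator genes stood at -0.038, 0.054 and -0.027 at 54 h, and at -0.047, -0.018 and 0.074 at 46 h. Both parts thus had the same lowest and highest arrays at 54 h, replicates 1 and B, and the same at 46 h, replicates 1 and C. All genes above the filter stood at -0.027, -0.015 and -0.031 at 54 h, and at -0.011, -0.031 and 0.054 at 46 h. Their highest arrays were thus also replicate B at 54 h and replicate C at 46 h, while their lowest arrays differed. The core minus regulator difference per array was -0.002, 0.002 and 0.031 at 54 h, against 0.024, 0.007 and -0.033 at 46 h. The SD of that difference between replicates, pooled over the times, was 0.024, against a difference between times of 0.005. With all probe sets of a gene averaged the core minus regulator difference was 0.070, and with the brightest plain _at probe set 0.064. Both lay above that SD, which was taken from brightest probe sets alone. Both readings also took in dim probe sets, some of them under the filter. The plain _at reading took Psma3 from a probe set at 81.4 units at 54 h and 50.9 at 46 h, with a change of 0.53. Its brightest had 7722 and 7630 units. For Psmb1 it used 225 and 218 units, where the brightest had 6285 and 6256. With brightest probe sets the core minus regulator difference was -0.030 without 54h replicate B and -0.020 without 54h replicate C.

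**Figure D3:**
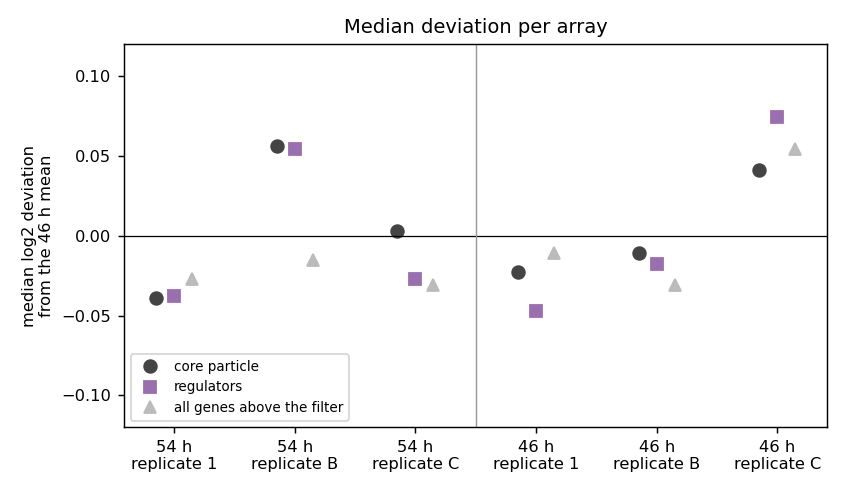
Median log2 deviation from the 46 h mean (vertical) on each array, 54 h left of the line and 46 h right, for core genes (circles), regulator genes (squares) and all genes above the filter (triangles). On 54h replicate B the core and regulators lie at 0.056 and 0.054, above all genes at -0.015. On 46h replicate C core, regulators and all genes lie at 0.041, 0.074 and 0.054.

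The same arrays recur gene by gene. Of the 39 genes, 14 had their lowest value on 54h replicate 1 and 14 on 46h replicate 1, 6 on 54h replicate C, 4 on 46h replicate B, 1 on 54h replicate B and 0 on 46h replicate C. Over all 13780 genes above the filter the shares at 54 h were 21.2% for replicate 1, 13.0% for replicate B and 15.5% for replicate C. At 46 h they were 14.9% for replicate 1, 21.9% for replicate B and 13.5% for replicate C. In the core 7 of 15 genes were lowest on 54h replicate 1, and in the regulators 10 of 24 on 46h replicate 1. The adrenal cortex markers were lowest on 54h replicate 1 for 7 of 7 genes. The arrays of the times did not overlap for 5 of the 39 subunit genes, against 15.4% of all genes; these were Psmb3, Psmc2 and Psmc4, higher, and Psmc6 and Psmd3, lower.

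Probe sets of a gene agreed for some subunits and not for others. Of the 39 genes, 16 had 1 probe set and 23 had several, up to 8 for Psmd11. For 18 genes at least 2 probe sets lay above the filter, and for 9 of these the changes of the brightest and the second brightest had the same sign, against 3459 of 5811 genes (59.5%) of the whole array. The median absolute gap between these changes was 0.10 on the log2 scale, against 0.12 over those genes. For 7 of the 18 all probe sets above the filter had the same sign. Psmb3, Psme3, Psma5 and Psma6 agreed best, with ranges of 0.01, 0.03, 0.05 and 0.05 between the lowest and highest change. The 2 Psma5 changes had opposite signs, at -0.03 and 0.01. The 3 Psma6 probe sets were all higher and the 2 of Psma7 both lower. The 19 probe sets under the filter scattered more, from -0.53 to 0.53 with a median absolute change of 0.23.

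**Figure D4:**
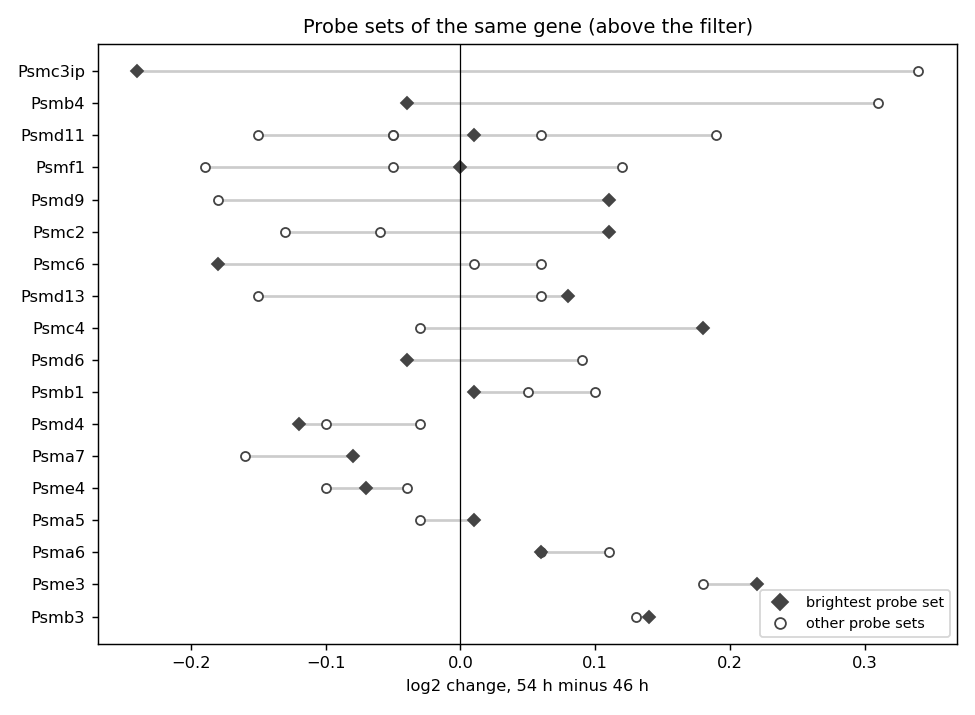
Log2 change (54 h minus 46 h, horizontal) of every probe set above the filter for the 18 genes with at least 2, ordered from the widest range at the top; diamonds mark the brightest probe set and open circles the others. Psmc3ip spans -0.24 to 0.34 and Psmb4 -0.04 to 0.31, while Psmb3 and Psme3 lie together.

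The widest disagreement was in Psmc3ip. Its brightest probe set read 273, 365 and 296 units at 54 h, against 347, 349 and 414 at 46 h, and the other read 239, 193 and 238 at 54 h, against 136, 185 and 199 at 46 h. Their log2 changes were -0.24 ± 0.14 and 0.34 ± 0.16 SE (limma adjusted p = 0.591 and 0.516), so the gene's direction was unsettled. Psmb4, a structural beta subunit, came next. Its brightest probe set read 6633, 7441 and 6819 units at 54 h, against 7177, 7099 and 7181 at 46 h, a log2 change of -0.04 ± 0.05 SE. Its other read 6429, 5251 and 6214 units at 54 h, against 4799, 5096 and 4492 at 46 h, a log2 change of 0.31 ± 0.08 (SE) and a limma adjusted p of 0.238, the smallest adjusted p of any subunit probe set. In that dimmer probe set the arrays of the times did not overlap, and 54h replicates 1 and C, the lowest for the brightest probe set, were the highest. Without 54h replicate B it passed the test, with a log2 change of 0.40 (limma adjusted p = 0.0483); over 16 alternatives its adjusted p ran from 0.00726 to 0.814 and its change from 0.25 to 0.40. The 6 Psmd11 probe sets above the filter ran from -0.15 to 0.19, with the brightest at 0.01.

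The ATPase genes that stood apart showed the same. The second probe set of Psmc2 read 4972, 5343 and 4973 units at 54 h, against 5263, 5283 and 5377 at 46 h, a log2 change of -0.06 where the brightest had 0.11. That of Psmc4 read 2415, 2863 and 2517 units at 54 h, against 2495, 2570 and 2864 at 46 h, a change of -0.03 where the brightest had 0.18. That of Psmc6 read 1920, 1973 and 1858 units at 54 h, against 1738, 1856 and 2132 at 46 h, a change of 0.01 where the brightest had -0.18. In each case the second probe set overlapped between the times while the brightest did not. On 54h replicate 1 the 2 Psmc4 probe sets deviated from their 46 h means by 0.26 and -0.13, those of Psmc2 by 0.19 and -0.09, and those of Psmb4 by -0.11 and 0.42. On 54h replicate B the gaps were narrower, at 0.11 and 0.12 for Psmc4, 0.07 and 0.01 for Psmc2 and 0.06 and 0.13 for Psmb4. Which transcripts or exons each probe set reads was not given in the sources used here. By name, the dimmer Psmb4 and the brightest Psmc2 probe sets were of type _x_at, and the brightest of Psmc4 and Psmc6 of type _a_at. The brightest Psmb4 and the second Psmc2 and Psmc4 probe sets were plain _at, and the second of Psmc6 was _s_at. In Psma6 an _x_at and a plain _at probe set both had 0.06. Whether the type bears on the changes was not tested.

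**Figure D5:**
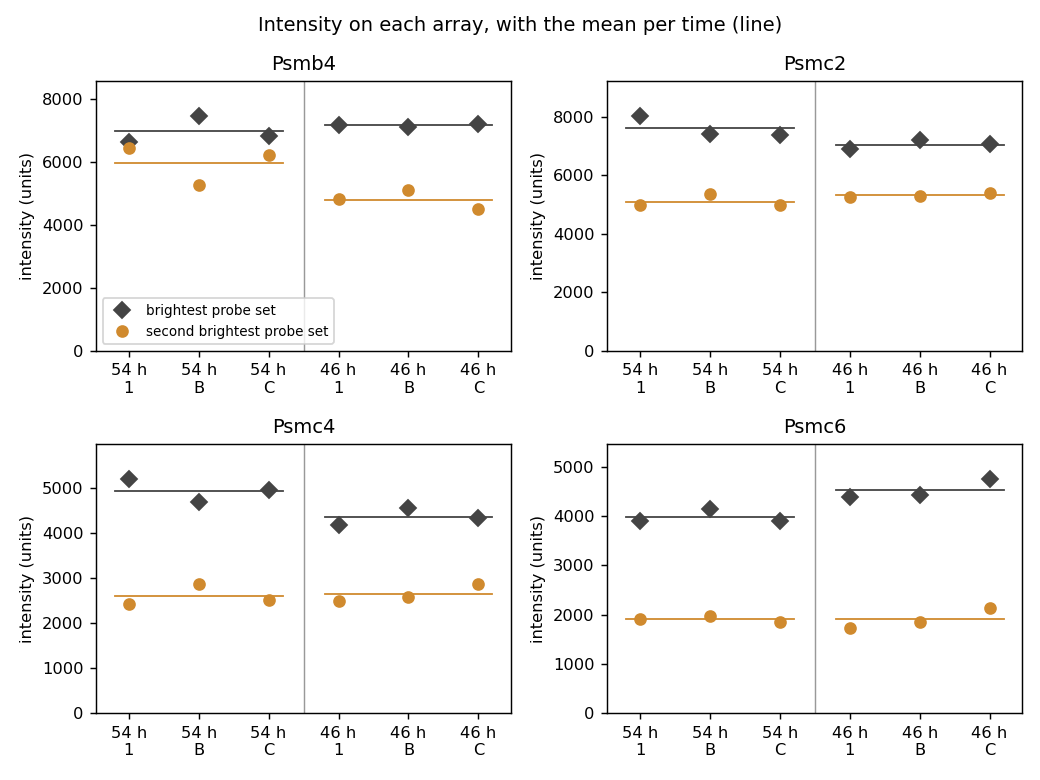
Intensity (vertical, units, from 0) of the brightest (diamonds) and second brightest (circles) probe set of Psmb4, Psmc2, Psmc4 and Psmc6 on each array, 54 h left and 46 h right, with a line at the mean of each time. The Psmb4 circles lie higher at 54 h while the diamonds do not, and for the ATPases the diamonds shift while the circles do not.

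Among genes that work with the proteasome the medians of 3 lists lay between -0.04 and 0.00 on the log2 scale, while single genes lay farther out. Of 5 assembly chaperones of the core, 0 passed limma, and with an unadjusted p under 0.05 there were 0 higher and 1 lower (10.3% of all genes had such a p), with a median log2 change of 0.00. Psmg2 was that gene, with 1167, 1377 and 1296 units at 54 h, against 1436, 1408 and 1646 at 46 h (log2 change -0.22 ± 0.10 SE, limma adjusted p = 0.485). Its arrays did not overlap. Psmg1, which pairs with Psmg2, had 0.10 ± 0.09 SE, and the maturation factor Pomp had 0.02 ± 0.06 SE. Of 11 associated factors measured, 0 passed, and 0 were higher and 1 lower at that level, beside the same 10.3% of all genes (median -0.04). Zfand2a, a proteasome-binding protein induced by arsenite, read 1427, 1824 and 1732 units at 54 h, against 2027, 1944 and 1897 at 46 h (log2 change -0.24 ± 0.10 SE, limma adjusted p = 0.456). Its arrays did not overlap, nor did those of Txnl1 and Sem1 in this list and of Ngly1 in the next. Over all genes the arrays did not overlap for 15.4%. Txnl1, a thioredoxin bound to the regulatory particle, had 0.11 ± 0.05 SE, the lid component Sem1 -0.07 ± 0.04 SE, and the deubiquitinases Usp14 and Uchl5 -0.09 and 0.07. Of 8 genes of transcriptional control and substrate extraction, 0 passed and 0 reached an unadjusted p of 0.05 in limma (median -0.01). Nfe2l1 had -0.03 ± 0.10 SE on 2357 ± 265 units at 54 h (SD, n = 3) and 2395 ± 185 units at 46 h (SD, n = 3). Ngly1, the enzyme that strips sugars from Nfe2l1 for its activation, had -0.16 ± 0.09 SE, Nfe2l2 -0.02, the unfolding ATPase Vcp -0.06 and its cofactor Ufd1 0.09. Of the ubiquitin and activating enzyme genes listed only Uba6 was measured by a probe set naming it alone, with 0.06 ± 0.10 SE.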

How the data were processed

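RNA of whole adrenal glands was measured on 1 array per sample, 3 at 54 h and 3 at 46 h; per the labels, total RNA from a commercial kit carried a biotin label. The values are the intensity per probe set that the authors deposited, on a linear scale and already sharing a scale; their summary, background correction and normalization are not given in the sources used here. Of 45001 probe sets, 64 controls, 1 without values and 1 with a damaged value were left out. Genes came from the platform annotation, and 87 of 87 member probe sets had their gene ID in RefSeq's GRCm38.p6 table, with 0 symbols changed.

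Values were transformed as log2(intensity + 16), so changes of dim probe sets are understated. Probe sets with a mean log2 value above the 40th percentile (26961) were fitted in limma 3.58.1 under R 4.3.3 (lmFit; eBayes, trend on), with two-sided p-values adjusted by Benjamini-Hochberg and a threshold of 0.05; single values were not tested alone, since exact permutation of 3 against 3 cannot go below 0.1. The procedure was tested on simulated data with the means and spreads of all 26961 probe sets. At the threshold it recovered 5.4% of 1.25-fold, 32.4% of 1.5-fold and 74.8% of 2-fold changes. These shares are over all probe sets, not the subunits. A gene was read from its brightest probe set. The members, gene lists and alternatives were chosen with earlier results of these data known. Named were the catalytic genes, the highest and lowest change in each family, genes whose probe sets differed most, the immunoproteasome genes and up to 2 genes of smallest p per further list; Psma6, Psmc6, Psma3 and others were added after their values were seen. Deviations of same-lettered arrays correlated by -0.06, -0.41 and -0.49, and the main fit did not pair them. With 3 arrays a time such correlations cannot show whether the letters mark a shared day or batch. Python 3.11.15 and matplotlib 3.10.9 made tables and plots.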

Additional observations from a re-analysis of the deposited data

How the results depend on the processing

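The count of 0 subunit probe sets past the test also held after quantile normalization or centring of the arrays, without the filter or with one at the 60th percentile, with offsets of 1 and 64, no intensity trend, a robust fit, with the replicate block (0 past the test) and without Psmc3ip, Psma8 and Psmb11. It was 7 with array weights, which favoured 54h replicate C (weight 4.261) and 46h replicate 1 (2.859), and 0 to 1 when each array was left out; the 1 was the second Psmb4 probe set without 54h replicate B. With array weights 3466 of all probe sets passed, against 31. Leaving out each array, the median log2 change ran from -0.022 to 0.017 over all member genes, -0.047 to 0.031 in the core, -0.018 to 0.027 in the regulators, and -0.030 to 0.022 for core minus regulators. When all probe sets of a gene were averaged the core median was 0.052 and the core minus regulator difference 0.070. With the brightest probe set of the plain _at type that difference was 0.064. Both readings took in dim probe sets, some of them under the filter, in place of or beside brighter ones. The cause of the larger differences was not tested. With the replicate block the median over all member genes was 0.010. Centring moved the median of all probe sets from -0.0202 to 0.0067, and the split at an unadjusted p of 0.05 to 1727 higher and 1209 lower, against 1170 and 1549. Of 121 values for 11 named genes under alternatives, 117 kept their sign and 0 passed the test; array weights, not among those 121, brought Psmb2, Psmc4 and Psmc6 past it. Psmb6 had 0.00 with centring. Leaving out each array, Psmb6 ran from -0.08 to 0.03, Psmb7 from -0.08 to 0.00 and Psmb2 from -0.01 to 0.26, with the sign turned without 54h replicate 1 for Psmb6 and Psmb7 and without 54h replicate C for Psmb2. With 3 arrays a time the number of arrays limits the precision, and the 19 probe sets under the filter had a median absolute change of 0.23, against 0.07 for the 68 above it. Over all probe sets 3 passed without the intensity trend, 48 with the 60th percentile filter, 47 with quantile normalization, 50 with centring, 61 in the robust fit, 45 with the block and 2 to 66 when each array was left out.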
